A study of Homo sapiens with 32 samples.

Results

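SNGM and HEC265 are human endometrial cancer cell lines whose genotype is labelled CTNNB1-mutated, and their transcriptomes were compared here after 24 h in vehicle. Members were the 4 libraries whose titles name either line with the vehicle control, 2 of SNGM and 2 of HEC265, out of 32 libraries in the series. Each line was also treated with paclitaxel (11.7 nM for SNGM, 5.6 nM for HEC265), with the CLK inhibitor SM08502 (350.7 nM for SNGM, 149 nM for HEC265) or with both. The series also holds Ishikawa and Ishikawa-S33Y cells given the same drugs at other doses. Vehicle was DMSO, and 500 ng of RNA went into every SNGM and HEC265 library. Cultures were plated in duplicate, and the p-values below rest on the spread between duplicates, pooled for each gene over all 16 groups of the series. They do not measure the spread between independent isolates, nor that of the SNGM or HEC265 duplicates alone. The serum content of the medium varied over the study and is not given by line, so an effect of medium cannot be told apart from the line.

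Beta-catenin, the product of CTNNB1, links E-cadherin to the cytoskeleton at cell junctions and is also the coactivator through which Wnt signals reach TCF/LEF transcription factors. In the absence of a Wnt ligand it is phosphorylated by a complex of APC, AXIN and the kinases CK1 and GSK3 and degraded, and mutations of its phosphorylation sites let it escape. Carcinomas of the endometrium arise from an epithelium of Mullerian origin, which expresses PAX8, SOX17 and HOX genes of the posterior body.

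The SNGM vehicle libraries held 31317054 and 34127623 counted reads and the HEC265 libraries 22465861 and 25900215. At least 1 read was seen for 22138 and 22813 genes in SNGM and for 20248 and 20433 genes in HEC265. Mitochondrially encoded transcripts took 5.37% and 9.99% of the reads in SNGM and 6.43% and 6.84% in HEC265. Over the 8353 genes with a mean log2(CPM + 1) above 4, the root mean square difference between duplicates was 0.22 in SNGM and 0.08 in HEC265 on the log2 scale, against 1.06 between the lines. CPM is reads per 1000000 counted reads, a relative level that is not corrected for gene length, so levels are compared between lines and not between genes.

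The lines differed in most of the transcripts that could be tested. Of 17011 genes tested with limma on log2(CPM + 1), 9339 (54.9%) had a Benjamini-Hochberg adjusted p under 0.05 and are called here. SNGM was higher in 4923 of them (28.9% of the genes tested) and lower in 4416 (26.0%). The called difference was at least 2-fold for 3971 genes (23.3%), 2347 of them higher in SNGM and 1624 lower, and at least 16-fold for 350 (2.06%). The share of calls that were higher in SNGM was 52.7% and passed to the other side of an even split when each library was re-centred on its median (47.7%) or quantile normalized (47.1%). Because bulk RNA was measured, fewer cells with a transcript and less of it per cell cannot be told apart.

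**Figure D1:**
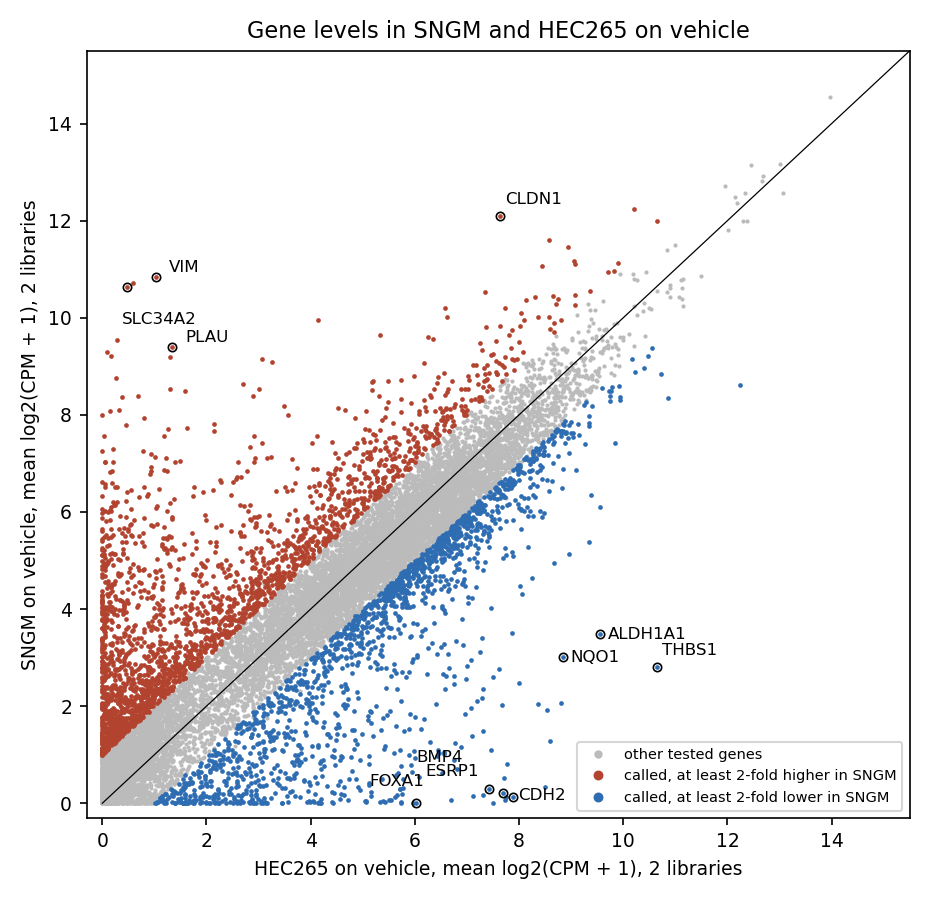
Mean log2(CPM + 1) of each of 17011 tested genes in the 2 HEC265 vehicle libraries (x axis) and the 2 SNGM vehicle libraries (y axis), with the line of equal levels. Red and blue points are the 2347 and 1624 called genes at least 2-fold higher and lower in SNGM, and circles mark genes named in the text, such as VIM near the upper left and CDH2 at the lower right.

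The largest differences toward SNGM were in genes of varied function. SLC34A2, a sodium-phosphate cotransporter, stood at 1599 and 1569.5 CPM in SNGM and at 0.356 and 0.425 CPM in HEC265, a log2 difference of 10.15 (SE 0.23, adjusted p = 1.4e-19). FSTL1, a secreted follistatin-like glycoprotein, followed with 1876 and 1507 CPM against 0.445 and 0.579 CPM, a difference of 10.12 (SE 0.14). HAVCR1, the kidney injury molecule, had 769.6 and 731 CPM in SNGM and 0.312 and 0.116 CPM in HEC265. For each of these genes both SNGM libraries were above both HEC265 libraries, which was a condition for naming them and so is no result. With 2 libraries a line, the lines did not overlap for 100% of the called genes and for 82.75% of all genes tested. TNFRSF11B, the decoy receptor osteoprotegerin, reached 698 and 567 CPM in SNGM against 0.134 and 0 CPM. PEG10, an imprinted retrotransposon-derived gene, had 580.1 and 606 CPM against 0.223 and 0.0386 CPM. IGFBP7, SDC2 (syndecan-2), OSMR (the oncostatin M receptor), VAV3, SYTL2 and PRTG completed the 15 largest differences with PLAU, ALDH1A3 and VIM, described below, and the histone gene HIST1H4J, whose near-identical copies make its counts uncertain.

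The largest differences toward HEC265 were in genes of varied function as well. NRCAM, a neuronal-type adhesion molecule, had 0.224 and 0.293 CPM in SNGM and 358 and 367 CPM in HEC265, a log2 difference of -8.18 (SE 0.21, adjusted p = 1.1e-18). THBS1, the matrix protein thrombospondin-1, had 5.94 and 5.98 CPM against 1619 and 1593 CPM, a difference of -7.85 (SE 0.27). TGFB2, a TGF-beta ligand, had 0.639 and 0.850 CPM against 225 and 211 CPM. The caveolae gene CAV2 had 2.75 and 3.69 CPM against 449 and 445 CPM, and its neighbour CAV1 had 86.9 and 74.6 CPM against 663 and 661 CPM. CA8, a carbonic anhydrase-related protein, had no read in either SNGM library and 179 and 183 CPM in HEC265, which makes it at least 1890-fold lower in SNGM against a floor of 3 reads per library. TFPI2, SCARA3, RHOBTB3, CD109, ME1, AMIGO2, SERPINB5 and CDH2, BMP4 and ESRP1 filled the other places.

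To show the start regions behind such near-absent transcripts, the 250 bases before the RefSeq start (GRCh38.p14) of FSTL1, near 0 in HEC265, and of FOXA1, a forkhead factor at 0 in SNGM, are given 5' to 3' on the gene's strand with every CG dinucleotide in capitals.
FSTL1, chr3:120450993-120451242, minus strand: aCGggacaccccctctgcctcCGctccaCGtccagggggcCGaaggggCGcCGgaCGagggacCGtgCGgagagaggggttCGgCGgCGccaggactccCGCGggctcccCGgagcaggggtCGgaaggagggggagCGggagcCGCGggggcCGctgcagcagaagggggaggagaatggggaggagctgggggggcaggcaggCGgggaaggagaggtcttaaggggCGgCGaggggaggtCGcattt
FOXA1, chr14:37595250-37595499, minus strand: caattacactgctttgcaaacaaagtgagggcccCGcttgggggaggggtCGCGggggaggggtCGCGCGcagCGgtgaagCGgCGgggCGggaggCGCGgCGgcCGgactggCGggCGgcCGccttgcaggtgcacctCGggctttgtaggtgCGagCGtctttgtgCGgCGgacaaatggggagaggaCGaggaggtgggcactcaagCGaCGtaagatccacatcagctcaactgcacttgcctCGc
The windows hold 24 and 26 CG dinucleotides. The median was 11 over 27195 promoter windows of this length and 20 over the 12374 tested protein-coding genes with a window. Methylation was not measured in these libraries.

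HEC265 had the higher levels of most epithelial genes. Of 24 genes of epithelial junctions and polarity, 15 were lower in SNGM, 4 were higher and 5 were not called, with a median log2 difference of -0.98 against 0.04 over all genes tested. The called share was 79.2%, against 54.9% of all genes tested, of which 26.0% were lower in SNGM. ESRP1, which directs epithelial splicing, had 0.128 and 0.176 CPM in SNGM and 209 and 203 CPM in HEC265, a 1358-fold difference in mean CPM (log2 difference -7.49, SE 0.13, adjusted p = 3.6e-21). GRHL2, a transcription factor that maintains epithelia, had 0.862 and 1.08 CPM against 85.5 and 83.6 CPM. RAB25, an epithelial small GTPase, had 0.0958 and 0.0879 CPM against 47.7 and 48.1 CPM. CDH3, or P-cadherin, had 1.69 and 1.55 CPM against 136 and 135 CPM (difference -5.70, SE 0.34). The tight junction claudin CLDN7, the protease PRSS8 and the OVOL1 and OVOL2 repressors were lower in SNGM as well.

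E-cadherin itself was expressed in both lines. CDH1 had 202 and 182 CPM in SNGM and 565 and 574 CPM in HEC265, 2.96-fold apart (difference -1.56, SE 0.21, adjusted p = 1.5e-06), and EPCAM had 153 and 129 CPM against 257 and 257 CPM. The claudin CLDN1 went the other way, with 4776 and 4058 CPM in SNGM and 208 and 187 CPM in HEC265 (difference 4.47, SE 0.14), and so did the epithelial transcription factor ELF3, with 86.0 and 77.0 CPM against 19.5 and 20.4 CPM. CLDN4, OCLN, DSP, CRB3 and ESRP2 were not called. The label of both lines as carcinoma cells was met by EPCAM, KRT8, KRT18, KRT19, CDH1 and CLDN4, which all had at least 67.9 CPM in each of the 4 libraries, with summed levels of 849 and 775 CPM in SNGM and 2542 and 2541 CPM in HEC265.

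Mesenchymal genes did not move together. Of 22 tested, 9 were higher in SNGM and 7 lower (72.7% called, against 54.9% of all genes), with a median of 0.01. VIM, encoding vimentin (chromosome 10, 17228241 to 17237593 in GRCh38.p14), had 1817 and 1882 CPM in SNGM and 0.935 and 1.16 CPM in HEC265, a 1767-fold difference (log2 difference 9.82, SE 0.16, adjusted p = 1.6e-21). CDH2, or N-cadherin, had the opposite pattern, with 0.0319 and 0.147 CPM in SNGM and 235 and 238 CPM in HEC265 (difference -7.77, SE 0.16). HEC265 therefore carried N-cadherin with E-cadherin transcripts and near-absent vimentin, and SNGM carried vimentin without N-cadherin. ZEB1, a repressor of epithelial genes, had 35.1 and 40.1 CPM in SNGM and 6.41 and 7.10 CPM in HEC265 (difference 2.31, SE 0.19), whereas SNAI2, another such repressor, had 0.0958 and 0.0293 CPM against 4.10 and 4.17 CPM. AXL, a receptor kinase, was lower in SNGM, and TGFBI, a matrix protein, was higher.

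Keratins were lower in SNGM in 11 of 15 tested (26.0% of all genes were), with a median of -1.53. KRT7, a simple epithelial keratin used in pathology, had 4.41 and 4.66 CPM in SNGM and 248 and 259 CPM in HEC265 (difference -5.53, SE 0.21). The simple keratin pair KRT8 and KRT18 had 174 and 166 CPM and 122 and 114 CPM in SNGM, against 934 and 903.5 CPM and 457 and 464 CPM in HEC265. The hair keratin KRT81 had 0.479 and 0.440 CPM against 65.9 and 66.4 CPM, and its sequence is close to that of KRT86, so the assignment of its reads is uncertain. KRT15 was the only keratin higher in SNGM (10.9 and 8.09 CPM against 6.28 and 5.75 CPM, adjusted p = 0.034), and that call was lost in 8 of the alternatives, among them leaving out SNGM replicate 1 or either HEC265 replicate (adjusted p between 0.0746 and 0.268).

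**Figure D2:**
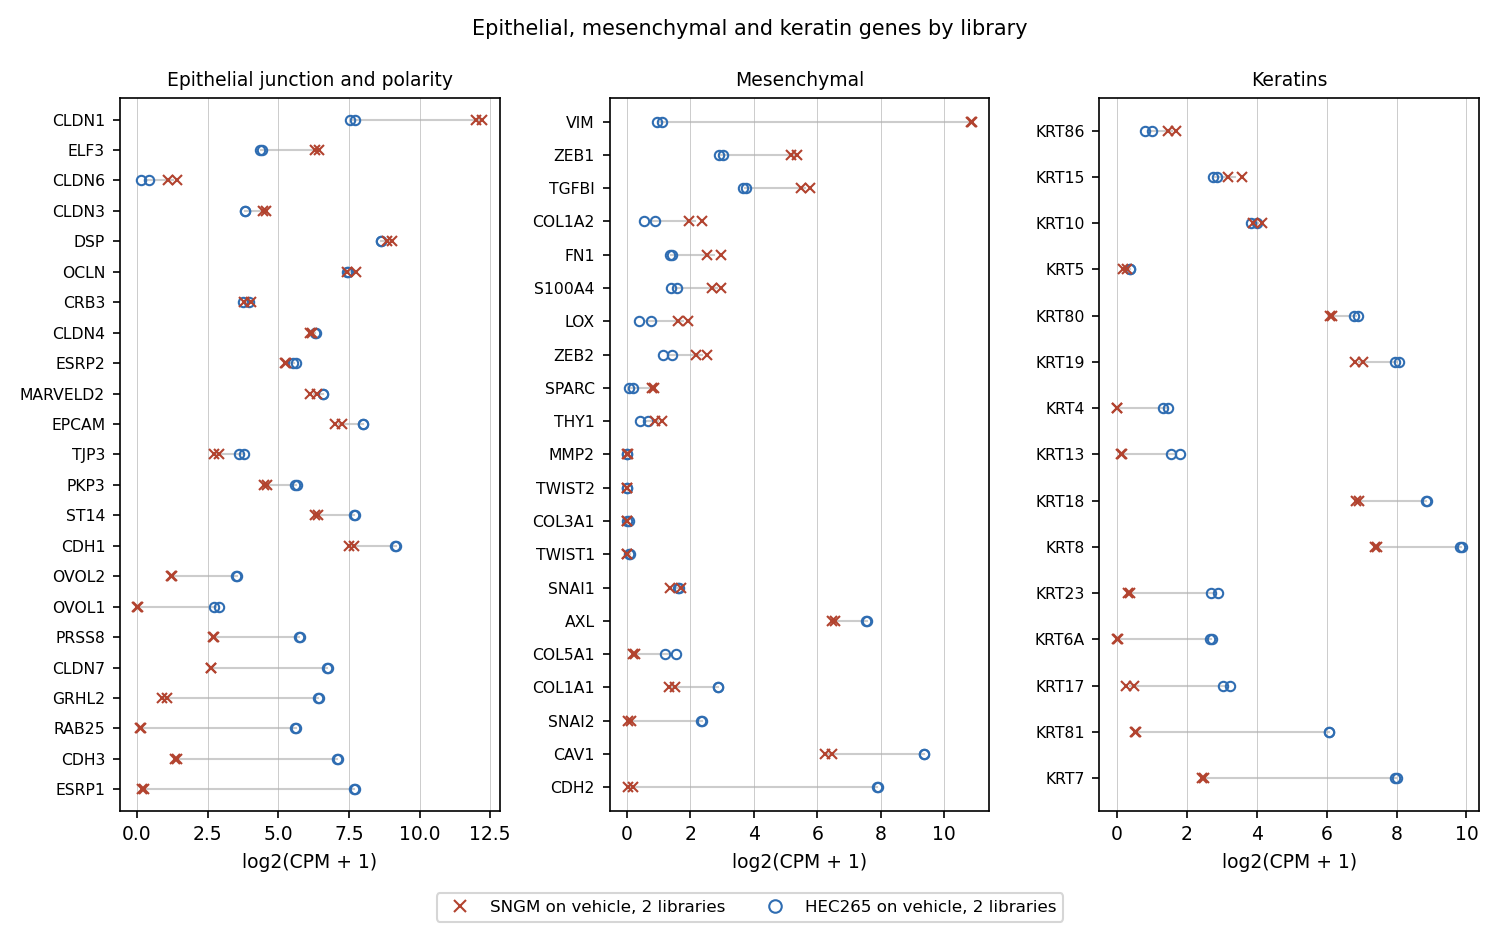
Levels of tested epithelial, mesenchymal and keratin genes as log2(CPM + 1) on the x axis, ordered in each panel by the difference between lines. Crosses are the 2 SNGM libraries, circles the 2 HEC265 libraries, and grey lines join the means. Most epithelial genes and keratins have the circles to the right, while VIM (crosses) and CDH2 (circles) stand at opposite ends of the mesenchymal panel.

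The start region of RAB25, which has the near-absence in SNGM described above, is shown because it holds the E-box CACCTG, a sequence that ZEB and SNAI repressors can bind, marked in capitals in the 250 bases before its RefSeq start.
RAB25, chr1:156060910-156061159, plus strand: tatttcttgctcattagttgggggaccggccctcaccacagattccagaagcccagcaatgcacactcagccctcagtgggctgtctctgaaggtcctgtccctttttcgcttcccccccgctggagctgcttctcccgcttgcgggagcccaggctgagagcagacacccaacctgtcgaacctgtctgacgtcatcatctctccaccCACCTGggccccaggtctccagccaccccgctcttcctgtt
CACCTG, searched on both strands, was found in 17.5% of all promoter windows and in 5 of the 12 epithelial genes with a window used here (OCLN, ELF3, DSP, RAB25 and CRB3). Of these 5 genes RAB25 was lower in SNGM, ELF3 was higher and the others were not called.

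The Wnt pathway was read through its targets, and these were split between the lines. Of 22 tested Wnt target and feedback genes, 9 were lower and 7 higher in SNGM and 6 were not called, a called share of 72.7% against 54.9% of all genes, with a median log2 difference of -0.09. Several feedback genes were lower in SNGM. AXIN2, a feedback inhibitor and general Wnt target (chromosome 17), had 31.7 and 28.8 CPM in SNGM and 144 and 145 CPM in HEC265, 4.78-fold apart (difference -2.22, SE 0.18, adjusted p = 4.7e-10). NKD1, another feedback inhibitor, had 20.2 and 27.6 CPM against 103 and 103 CPM, and NOTUM, a secreted deacylase of Wnt ligands, had 3.70 and 4.10 CPM against 19.7 and 20.3 CPM. The ubiquitin ligase ZNRF3 had 121 and 129.6 CPM against 185 and 183 CPM, and its relative RNF43 was not called, with 53.9 and 56.0 CPM against 57.2 and 59.0 CPM.

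Among transcription factors of the pathway, TCF7 had 6.80 and 7.85 CPM in SNGM and 65.4 and 63.6 CPM in HEC265 (difference -2.98, SE 0.27), while LEF1 had 10.8 and 10.1 CPM against 12.0 and 12.7 CPM and was not called (adjusted p = 0.39). TCF7L2 was not called either. SP5, a repressor induced by Wnt, had 0.0319 and 0.0586 CPM against 5.07 and 5.60 CPM, and ASCL2, a stem cell factor, had no read in SNGM and 2.09 and 2.16 CPM in HEC265, at least 22.2-fold lower. BMP4, a morphogen regulated by Wnt in several tissues, had 0.255 and 0.205 CPM against 178 and 163 CPM (difference -7.12, SE 0.22). LGR5, a marker of Wnt-driven stem cells, had 0.0319 and 0.0586 CPM in SNGM and no read in HEC265.

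SNGM was higher for another set of targets. CD44, the hyaluronan receptor, had 3006 and 2631 CPM in SNGM and 497 and 479.6 CPM in HEC265, 5.77-fold apart (difference 2.52, SE 0.14, adjusted p = 7.9e-13). MYC had 374 and 369 CPM against 126 and 122 CPM, CCND1 (cyclin D1) 662 and 667 CPM against 378 and 372 CPM, and the receptor TNFRSF19 195 and 152 CPM against 34.01 and 34.4 CPM. DKK1, a secreted Wnt antagonist, had 20.4 and 15.9 CPM in SNGM and no read in HEC265, at least 136-fold higher. These genes have many regulators besides Wnt, and what share of their level comes from beta-catenin was not tested.

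CTNNB1 transcript was present in both lines, at 266 and 213 CPM in SNGM and 409 and 414 CPM in HEC265, 1.72-fold apart (difference -0.79, SE 0.12, adjusted p = 7.5e-06). Of 16 genes of beta-catenin, its degradation complex and its partners, 6 were lower in SNGM, 1 was higher and 9 were not called. The called share, 43.8%, was below the 54.9% of all genes tested. The coactivator PYGO2 had 44.0 and 42.7 CPM against 76.5 and 77.5 CPM. CTNNBIP1, an inhibitor that keeps beta-catenin from TCF, was the member higher in SNGM, with 42.1 and 36.4 CPM against 21.4 and 18.6 CPM (difference 0.94, SE 0.13). The coactivator BCL9L had 69.7 and 125 CPM in SNGM and 231 and 218 CPM in HEC265, and its call (adjusted p = 0.036) was lost without SNGM replicate 1 (0.267) or without either HEC265 replicate. APC, AXIN1, GSK3B and BTRC were not called.

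Of 27 tested Wnt ligands and receptors, 6 were higher and 6 lower in SNGM. Their called share, 44.4%, was below the 54.9% of all genes tested. WNT5A, a ligand of the noncanonical branch, had 1.31 and 0.996 CPM in SNGM and 85.2 and 86.7 CPM in HEC265 (difference -5.34, SE 0.26), and WNT6 had 0.192 and 0.205 CPM against 12.1 and 10.8 CPM. WNT7B, expressed in the uterine epithelium, had 247 and 294 CPM in SNGM against 76.4 and 70.3 CPM (difference 1.87, SE 0.19). The receptor FZD4 had 60.5 and 52.0 CPM against 11.2 and 10.1 CPM, and FZD6 had 71.8 and 57.2 CPM against 159.7 and 160.3 CPM. LRP6, the main coreceptor, was not called (101 and 92.5 CPM against 96.6 and 93.7 CPM).

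**Figure D3:**
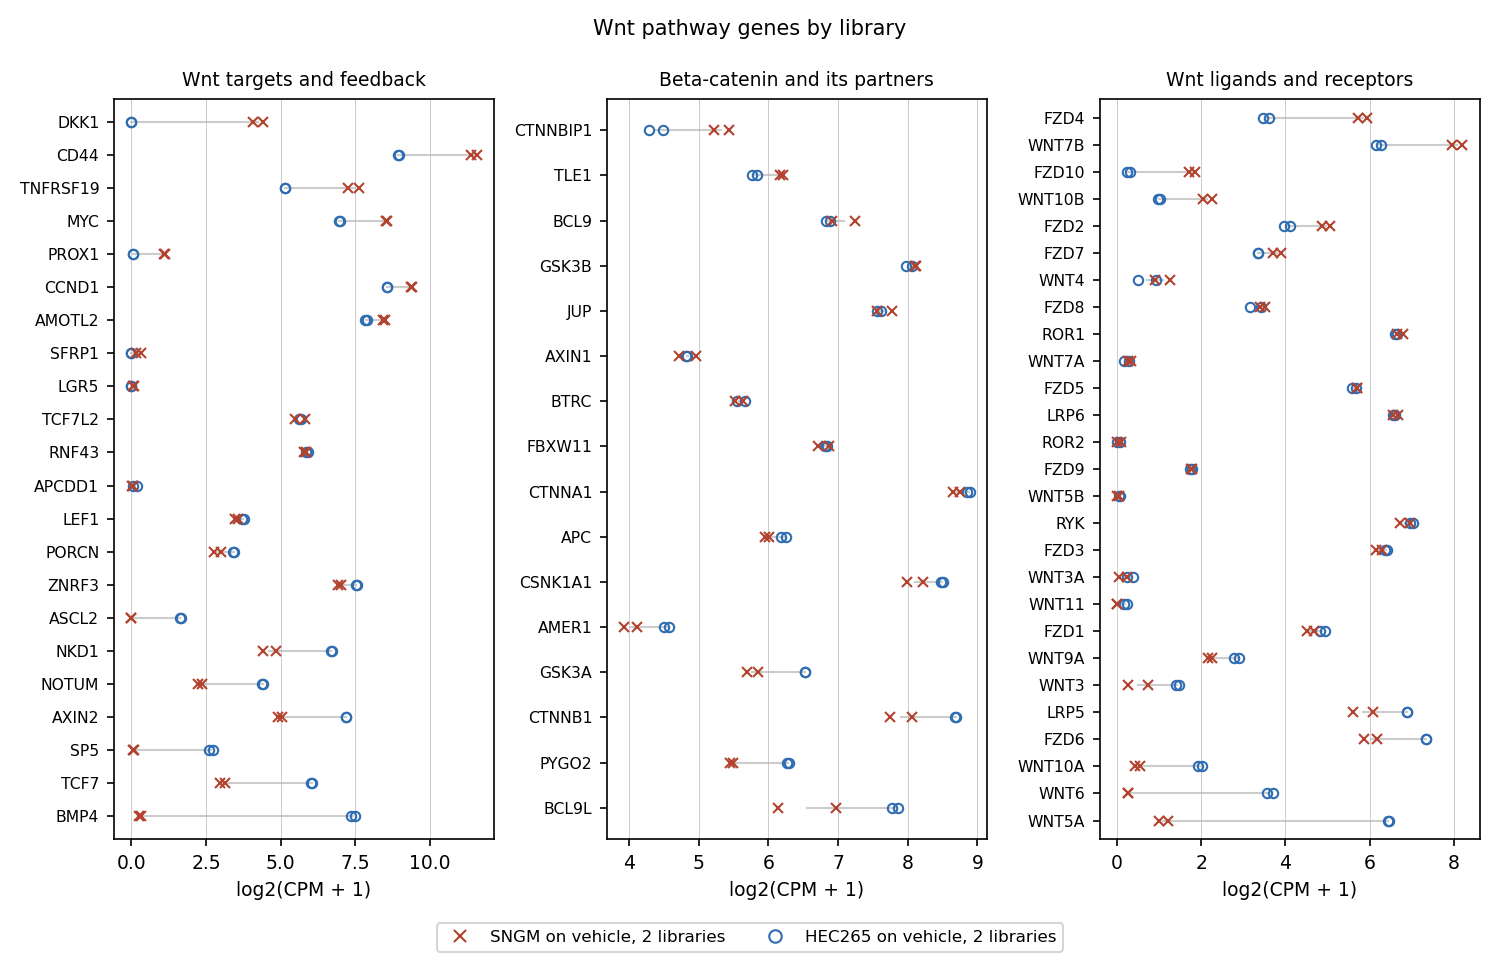
Levels of tested Wnt pathway genes as log2(CPM + 1) on the x axis, in 3 panels ordered by the difference between lines. Crosses are the 2 SNGM libraries, circles the 2 HEC265 libraries, and grey lines join the means. In the target panel DKK1 and CD44 (crosses) are furthest higher in SNGM and BMP4 and TCF7 (circles) furthest lower, and in the middle panel, which has a narrower axis, most genes differ by less than 1 between the lines.

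SP5 is a described target of beta-catenin with TCF sites in its promoter, and the 250 bases before its RefSeq start are shown with the TCF/LEF core CTTTGAT in capitals.
SP5, chr2:170715087-170715336, plus strand: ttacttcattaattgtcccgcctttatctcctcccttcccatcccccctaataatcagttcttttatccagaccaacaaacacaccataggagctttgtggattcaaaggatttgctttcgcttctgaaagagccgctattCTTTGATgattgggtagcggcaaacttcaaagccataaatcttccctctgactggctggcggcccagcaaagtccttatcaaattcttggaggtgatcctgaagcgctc
The match begins 109 bases before the start. CTTTGAT, on either strand, was found in 2.29% of all promoter windows and in 1 of the 13 Wnt target genes with a window used here. The TCF/LEF core and the E-box were searched separately.

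The factors that mark the Mullerian tract were present in part. PAX8 was expressed in both lines, at 274 and 405 CPM in SNGM and 183 and 174 CPM in HEC265 (difference 0.90, SE 0.26, adjusted p = 0.0056), a call that was lost without SNGM replicate 2 (0.112). HOXA10 and HOXA11, which pattern the uterus, had at least 24.3 CPM in all 4 libraries. SOX17, a factor of the uterine epithelium, had no read in SNGM and 49.0 and 55.4 CPM in HEC265, at least 545-fold lower. EMX2, a homeobox gene of the genital tract, stayed under 1 CPM in every library (0.766 and 0.879 CPM in SNGM, 0.267 and 0.270 CPM in HEC265), so this marker did not meet the endometrial label in either line.

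Of 22 tested Mullerian and endometrial transcription factors, 10 were higher in SNGM and 5 lower (68.2% called, against 54.9% of all genes, of which 28.9% were higher and 26.0% lower). The first count was 6 without SNGM replicate 2. FOXA1, a pioneer factor for steroid receptors, had no read in SNGM and 64.9 and 62.8 CPM in HEC265, at least 667-fold lower (log2 difference -6.02, SE 0.16). PAX2, a paralogue of PAX8, had 26.7 and 43.6 CPM in SNGM and 0.0890 and 0.116 CPM in HEC265, and MECOM had 68.4 and 66.5 CPM against 0.0890 and 0.154 CPM (difference 5.93, SE 0.14). LHX1, which acts with PAX2 in the urogenital system, was also higher in SNGM (11.1 and 12.5 CPM against 0.356 and 0.772 CPM).

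HOX genes, which are laid out in 4 clusters and set position along the body, were mostly higher in SNGM. Of 35 tested, 19 were higher and 4 lower (65.7% called, against 54.9% of all genes), with a median of 0.82. The largest differences lay in the HOXB cluster on chromosome 17. HOXB2 had 30.4 and 31.4 CPM in SNGM and no read in HEC265, at least 231-fold higher (difference 5.00, SE 0.11, adjusted p = 1.4e-19). HOXB3 had 55.3 and 74.5 CPM against 0.0445 and 0.0386 CPM, and HOXB4 and HOXB5 had no read in HEC265. HOXB6 had 25.8 and 34.5 CPM against 0.0445 and 0 CPM, and HOXB8 had 27.0 and 28.4 CPM against 0.401 and 0.502 CPM. Other genes of the cluster were read in both lines: HOXB7 had 42.9 and 40.6 CPM in SNGM and 19.1 and 19.9 CPM in HEC265, and HOXB9 had 36.7 and 45.8 CPM against 15.8 and 16.9 CPM.

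In the other clusters, HOXA2 to HOXA7 were higher in SNGM, HOXA9 was lower (6.77 and 7.30 CPM against 63.0 and 66.3 CPM, difference -3.03, SE 0.23), and HOXA10 was not called (60.7 and 58.0 CPM against 54.7 and 58.1 CPM). HOXC10 had 5.56 and 6.89 CPM against 28.8 and 28.7 CPM. The HOXD cluster was near silent in both lines: every HOXD gene in the list had under 1 CPM in each of the 4 libraries.

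**Figure D4:**
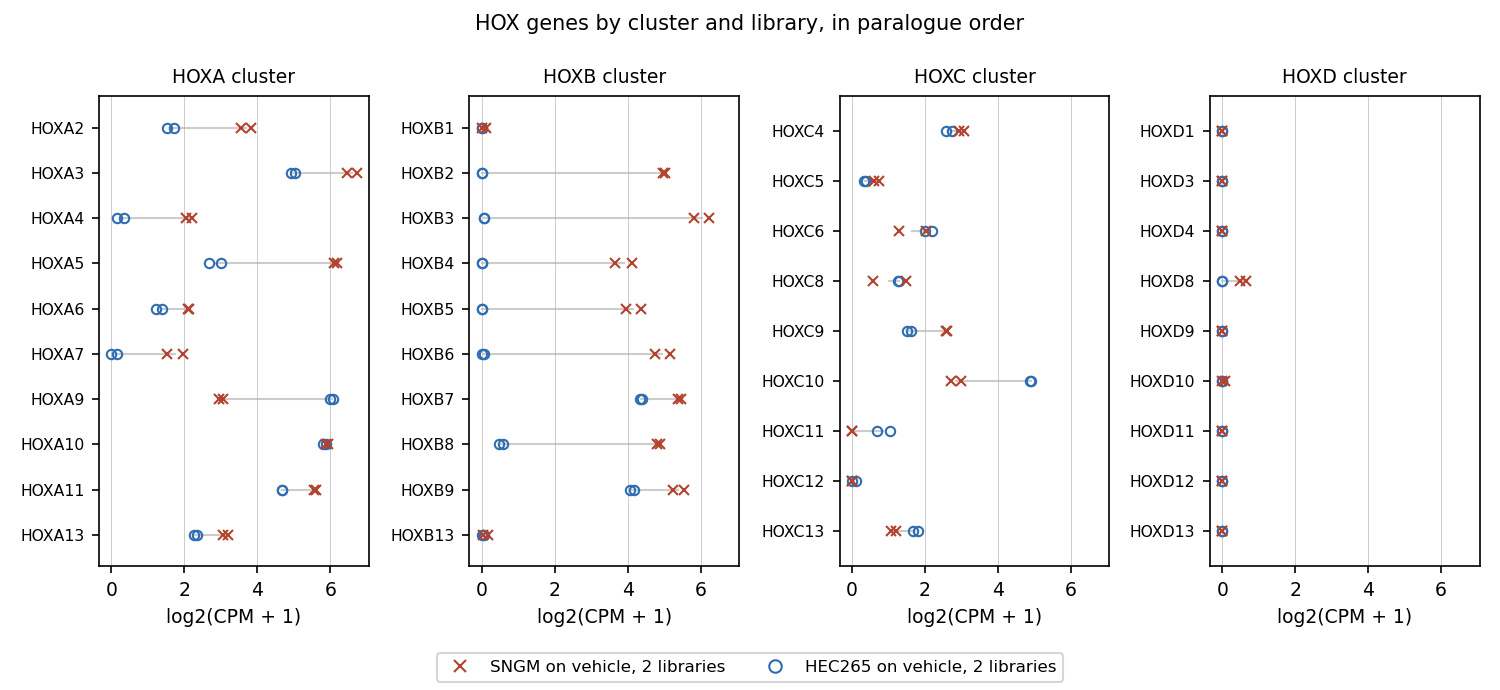
Levels of HOX genes as log2(CPM + 1) on the x axis, by cluster and in paralogue order from top to bottom. Crosses are the 2 SNGM libraries, circles the 2 HEC265 libraries, and grey lines join the means. HOXB2 to HOXB6 and HOXB8 have circles near 0, HOXB7 and HOXB9 do not, and the HOXD panel is near 0 for both lines.

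The receptors for estrogen and progesterone were low. ESR1, the estrogen receptor, had 2.27 and 3.31 CPM in SNGM and 0.0890 and 0.0772 CPM in HEC265 (difference 1.79, SE 0.16), and PGR, the progesterone receptor, had no read in any of the 4 libraries, where 3 reads amount to at most 0.134 CPM. Of 19 tested receptor and hormone-responsive genes, 8 were higher and 6 lower in SNGM (73.7% called, against 54.9% of all genes), and the first count was 4 without HEC265 replicate 2 and 5 without SNGM replicate 2. FKBP5, a glucocorticoid-induced cochaperone, had 0.830 and 1.17 CPM in SNGM and 57.2 and 58.6 CPM in HEC265 (difference -4.88, SE 0.17), although the glucocorticoid receptor NR3C1 had 20.9 and 18.6 CPM against 29.2 and 29.5 CPM. PDZK1, an estrogen-induced scaffold, had 40.0 and 40.6 CPM against 10.1 and 11.1 CPM. GREB1 was lower in SNGM (1.63 and 2.31 CPM against 5.07 and 5.41 CPM, adjusted p = 0.005, and 0.0538 without SNGM replicate 1).

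Squamous and mucinous genes were few. Of 8 tested squamous and morular markers, 3 were higher in SNGM, CD24 and TRPS1 among them, and 1 lower (KRT6A), 4 called of 8 against 54.9% of all genes, and TP63, the squamous master factor, stayed under 1 CPM. CD24, a surface glycoprotein, had 5265 and 4498 CPM in SNGM against 1152 and 1206 CPM (difference 2.04, SE 0.12). Of 9 tested mucins, 4 were lower in SNGM and 2 higher (66.7% called). MUC16, which carries the CA125 antigen, had 7.38 and 13.2 CPM in SNGM and 74.0 and 63.7 CPM in HEC265 (difference -2.68, SE 0.31). MUC1 had 13.4 and 24.2 CPM against 6.19 and 6.25 CPM, and MUC3A had 18.8 and 28.5 CPM against 13.4 and 13.8 CPM. The count of 2 mucins higher in SNGM was 1 without HEC265 replicate 1 or SNGM replicate 2, MUC3A being lost (adjusted p = 0.0553 and 0.206).

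Mismatch repair genes were mostly lower in SNGM or not called. Of 11 tested, 5 were lower and 2 higher in SNGM (63.6% called, against 54.9% of all genes). EXO1, the repair exonuclease, had 30.4 and 30.5 CPM in SNGM against 89.0 and 93.4 CPM in HEC265 (difference -1.55, SE 0.12). PMS2, a subunit of the MutL complex, had 37.5 and 34.8 CPM against 35.2 and 35.5 CPM and was not called. PMS1 was higher in SNGM (adjusted p = 0.027), a call that was lost when any 1 of the 4 libraries was left out (0.0523 to 0.137). The count higher in SNGM was then 1, and the count lower was 3 without HEC265 replicate 2 or SNGM replicate 1.

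Antigen presentation differed at specific steps. HLA-B, a class I heavy chain, had 121 and 104 CPM in SNGM and 0.0890 and 0.116 CPM in HEC265, whereas HLA-C had 238 and 184 CPM against 73.0 and 72.0 CPM and HLA-E was not called. Alleles of these genes that differ from the reference can lose reads in alignment, which was not tested. B2M, the shared light chain, went the other way, with 162 and 135 CPM in SNGM and 239 and 251 CPM in HEC265. The peptide transporter gene TAP1 had 90.5 and 68.7 CPM against 45.2 and 44.6 CPM, TAP2 46.9 and 40.3 CPM against 74.7 and 71.5 CPM, and the immunoproteasome subunit PSMB8 16.0 and 12.0 CPM against 0.0890 and 0.0386 CPM. The interferon-induced genes IFIT1 and IFIT3 were also higher in SNGM. Of 26 tested genes of the list, 13 were higher in SNGM and 5 lower (69.2% called, against 54.9% of all genes), with a median of 0.55.

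Of 22 tested inflammatory genes, 14 were higher in SNGM and 5 lower (86.4% called, against 54.9% of all genes), with a median of 0.71. TNFSF10, which encodes the death ligand TRAIL, had 158 and 133 CPM in SNGM and 0.712 and 1.16 CPM in HEC265 (difference 6.25, SE 0.24). The cytokine IL6 had 23.1 and 22.0 CPM against 1.11 and 1.39 CPM, the acute phase gene SAA1 31.7 and 24.2 CPM against 4.01 and 3.78 CPM, and CXCL1 7.92 and 8.53 CPM against no read. CXCL8 and CXCL16 were the chemokines lower in SNGM by the most, at 28.7 and 24.2 CPM against 126 and 118 CPM and at 4.02 and 5.04 CPM against 108 and 105 CPM.

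Endometrial cancer driver genes were lower in SNGM in 13 of 24 tested and higher in 2 (62.5% called, against 54.9% of all genes, of which 26.0% were lower), with a median of -0.44. PIK3R1, the regulatory subunit of PI3-kinase, was higher, with 60.2 and 57.9 CPM against 14.7 and 13.9 CPM (difference 1.98, SE 0.13), as was CCNE1. ARID5B had 45.6 and 50.3 CPM against 136 and 134 CPM (difference -1.48, SE 0.23). Mutations of these genes were not read from the libraries.

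Genes listed as p53 targets were higher in SNGM in 10 of 20 tested and lower in 3, against 28.9% and 26.0% of all genes. Their median difference was 0.34. GDF15, a stress cytokine, had 234 and 218 CPM in SNGM against 46.3 and 46.9 CPM (difference 2.25, SE 0.15), RRM2B, a ribonucleotide reductase subunit, 375 and 308 CPM against 78.4 and 76.6 CPM, and CDKN1A (p21) 710.4 and 607 CPM against 429 and 404 CPM. MDM2 was not called (482 and 442 CPM against 494 and 488 CPM). XPC was lower in SNGM (21.9 and 25.4 CPM against 39.3 and 39.1 CPM, adjusted p = 0.009, and 0.0731 without SNGM replicate 1). Among 24 cell cycle genes, 8 were higher and 9 lower (70.8% called, against 54.9% of all genes), the latter count being 5 without either HEC265 replicate and 4 without SNGM replicate 2. CDKN2A, the p16 and p14 locus, had 47.3 and 42.1 CPM in SNGM and 5.47 and 5.25 CPM in HEC265 (difference 2.84, SE 0.19), while the proliferation marker MKI67 was not called (344 and 442 CPM against 436 and 444 CPM).

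Receptor tyrosine kinases and their ligands were called in 20 of 27 tested, 8 higher and 12 lower in SNGM (74.1% called, against 54.9% of all genes), the first count being 5 without either HEC265 replicate or SNGM replicate 2. EPHA2 had 179.9 and 165 CPM in SNGM against 20.1 and 20.46 CPM, FGFR1 173 and 199 CPM against 63.3 and 61.4 CPM, and the ERBB3 ligand NRG1 119 and 118 CPM against 12.4 and 12.2 CPM (difference 3.17, SE 0.12). ERBB2 and ERBB3 were lower in SNGM, with ERBB2 at 72.2 and 72.1 CPM against 150.1 and 145 CPM, and EGFR and MET were not called. In the insulin-like growth factor axis, IGFBP3 had 35.4 and 32.4 CPM in SNGM and no read in HEC265, at least 254-fold higher, and IGF2 had 0.383 and 1.26 CPM against 16.8 and 17.3 CPM (difference -3.35, SE 0.47).

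Genes of the CLK kinases, which SM08502 inhibits, and of the splicing machinery had a median absolute difference near that of all genes tested. Of the CLK kinases, which phosphorylate SR splicing factors, CLK1 had 25.6 and 26.5 CPM in SNGM and 15.1 and 16.3 CPM in HEC265 (difference 0.70, SE 0.14, adjusted p = 0.00024), and CLK3 had 40.9 and 43.5 CPM against 29.0 and 29.3 CPM (difference 0.52, SE 0.15, adjusted p = 0.0054). CLK2 had 19.5 and 20.4 CPM against 23.7 and 24.6 CPM and was not called (adjusted p = 0.071), but it was called lower in SNGM under 4 alternatives, median re-centring among them. CLK4 had 10.7 and 11.6 CPM against 11.3 and 11.5 CPM (adjusted p = 0.92). Of 32 tested kinases and splicing factors, 7 were higher and 13 lower in SNGM (62.5% called, against 54.9% of all genes), with a median of -0.25 and a median absolute difference of 0.48 against 0.51 for all genes tested. SRSF1, SRSF2, SRSF3, SRSF4, SRSF6, SRSF9, SRSF10 and TRA2B were lower in SNGM (log2 differences of -0.45 to -0.90), as in SRSF6 with 108 and 111 CPM against 196 and 210.1 CPM. SRSF11 was higher, with 140.1 and 142 CPM against 102 and 98.1 CPM. ESRP1, described above and also in this list, stood apart with a difference of -7.49. So did MBNL3, a muscleblind splicing regulator, with 0.798 and 1.26 CPM against 94.4 and 93.2 CPM (difference -5.56, SE 0.23). HIPK2, a nuclear kinase, had 997 and 1561 CPM against 433 and 406 CPM.

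Tubulins, which polymerize into the microtubules that paclitaxel stabilizes, differed by isotype. TUBB3, the class III isotype, had 328 and 290.1 CPM in SNGM and 44.3 and 43.0 CPM in HEC265, 7.08-fold apart (difference 2.79, SE 0.11, adjusted p = 1.1e-15). TUBB6 had 188 and 154 CPM against 6.90 and 7.91 CPM, TUBB4A 37.1 and 54.5 CPM against 0 and 0.116 CPM, and TUBA1A 411 and 314 CPM against 1.74 and 2.32 CPM (difference 6.90, SE 0.16). The general isotypes TUBB, TUBB4B and TUBA1B were lower in SNGM, with TUBB at 1594 and 1547 CPM against 2244 and 2192 CPM. Tubulin genes share long stretches of sequence, so reads may be split between them. Of 29 tested tubulin and taxane-related genes, 12 were higher and 10 lower in SNGM (75.9% called, against 54.9% of all genes). MAP2, a microtubule-associated protein, had 9.26 and 11.5 CPM against 236 and 231 CPM, the microtubule destabilizer STMN3 106 and 97.5 CPM against 5.16 and 4.75 CPM, and the drug efflux pump ABCB1 2.27 and 1.26 CPM against 8.28 and 10.4 CPM (difference -1.92, SE 0.33).

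Urokinase and its receptor differed in opposite directions. PLAU, the urokinase gene, had 749 and 612 CPM in SNGM and 1.69 and 1.39 CPM in HEC265, 442-fold apart (difference 8.06, SE 0.14), while its receptor PLAUR had 11.3 and 10.8 CPM against 51.4 and 49.1 CPM (difference -2.09, SE 0.23). The inhibitor SERPINE2 had 163 and 143 CPM against 1.02 and 0.463 CPM. MMP1, the interstitial collagenase, had 103 and 80.5 CPM in SNGM against 2.63 and 2.20 CPM. Of 20 tested proteases and inhibitors, 5 were higher and 6 lower, a called share of 11 in 20 that is near the 54.9% of all genes tested.

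Progenitor and oncofetal genes were higher in SNGM in 12 of 22 tested and lower in 3 (68.2% called, against 54.9% of all genes), with a median of 0.57. The retinaldehyde dehydrogenases went in opposite directions. ALDH1A3 had 611 and 552 CPM in SNGM and 1.51 and 1.43 CPM in HEC265 (difference 7.88, SE 0.17), and ALDH1A1 had 12.1 and 8.70 CPM against 735 and 766 CPM (difference -6.06, SE 0.16). PROM1 (CD133) had 42.0 and 39.5 CPM against 0.312 and 0.425 CPM, L1CAM, an adhesion molecule, 384 and 447 CPM against 34.8 and 36.3 CPM, and MSLN (mesothelin) 38.6 and 33.9 CPM against 1.69 and 1.58 CPM. LGR4, a receptor for R-spondins, had 286 and 230.2 CPM against 134 and 124 CPM.

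Detoxifying enzymes were split 8 higher and 8 lower of 22 tested (72.7% called, against 54.9% of all genes), and their median absolute difference was 1.89 on the log2 scale against 0.51 for all genes tested. NQO1, a quinone reductase, had 6.42 and 7.82 CPM in SNGM and 462 and 452 CPM in HEC265 (difference -5.82, SE 0.13), AKR1B10, an aldo-keto reductase, 0.255 and 0.205 CPM against 50.2 and 52.4 CPM, and UGT1A6, a glucuronosyltransferase, 2.91 and 1.85 CPM against 70.6 and 72.9 CPM. ALDH3A1 had no read in SNGM and 10.2 and 9.77 CPM in HEC265. In the other direction, GSTM3, a glutathione transferase, had 127 and 106 CPM against 1.42 and 1.16 CPM (difference 5.68, SE 0.18), AKR1C1 50.5 and 45.6 CPM against 6.94 and 7.57 CPM, and CYP3A5 67.0 and 71.6 CPM against 5.88 and 4.71 CPM. The AKR1C, GSTM and UGT1A families contain near copies that share reads.

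Markers of other cell types were at low levels in both lines. For endothelium the summed level of 4 markers was 2.97 and 4.84 CPM in SNGM and 1.34 and 1.20 CPM in HEC265, for 5 neural markers 2.04 and 2.43 against 1.78 and 1.12 CPM, and for 4 intestinal markers 2.52 and 2.75 against 1.69 and 2.51 CPM. The 6 leukocyte markers summed to 18.5 and 21.6 CPM against 9.88 and 9.42 CPM, nearly all of it CD68, and the 8 stromal markers to 20.8 and 22.3 CPM against 24.1 and 23.2 CPM, most of it ACTA2. Within the stromal list, LUM and HAND2 had at most 0.0879 CPM in any of the 4 libraries. ACTA2 had a mean log2(CPM + 1) of 4.10 in SNGM and 4.08 in HEC265. Smooth muscle markers summed to 6.90 and 8.44 CPM against 2.40 and 3.94 CPM. Among 13 mitochondrially encoded genes (15.4% called, against 54.9% of all genes), MT-ATP8 and MT-ND3 were higher in SNGM, a count of 2 that became 1 without either HEC265 replicate and 0 without SNGM replicate 2, the library with the larger mitochondrial share.

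The line difference was also taken between the paclitaxel and between the SM08502 libraries, which give other group means but share the estimate of spread with the vehicle comparison. On paclitaxel, at the doses given above, 8963 genes (52.7%) were called between the lines. Of the 9339 vehicle calls, 8303 (88.9%) were called in the same direction on paclitaxel and 0 in the opposite direction, which is 92.6% of the paclitaxel calls. Of the 3971 at least 2-fold, 3895 were called again and all 3971 had the same sign. Across the 17011 genes, which are not independent replicates, Pearson's r of the log2 differences was 0.99. VIM differed by 9.73 on paclitaxel against 9.82 on vehicle, CDH2 by -7.63 against -7.77, and AXIN2 by -2.12 against -2.22. The test of the change in the line difference called 0 genes (0.0%) with limma, with 116 at an unadjusted p under 0.05, and 0 with limma voom on recovered reads, with 415. With the libraries of this contrast alone, 660 of 16852 genes were under that limit. All these counts are below the share of 0.05 that well-calibrated tests give when nothing changes. The 0 calls therefore do not show that the line difference stayed the same on paclitaxel.

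**Figure D5:**
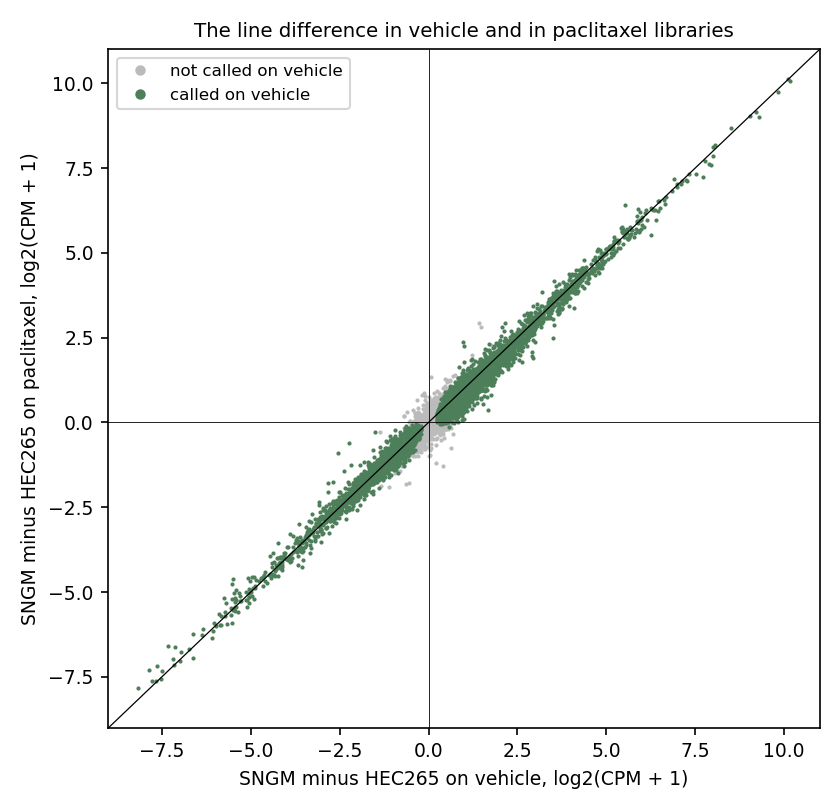
Log2 differences SNGM minus HEC265 of 17011 genes on vehicle (x axis) and on paclitaxel (y axis), each from 2 libraries per line, with the line of equality. Green points are the 9339 genes called on vehicle. Called genes lie along the line of equality, with 0 called in the opposite direction on paclitaxel.

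On SM08502, whose dose was higher in SNGM, 8967 genes (52.7%) were called between the lines. Of these, 7353 (82.0%) were vehicle calls in the same direction, which is 78.7% of the vehicle calls. Of the 9339 vehicle calls, 28 were called in the opposite direction on SM08502, and 9076 had the same sign with or without a call. The line difference on SM08502 differed from that on vehicle for 345 genes (2.03%), 140 in the positive direction and 205 in the negative. That split became 317 and 97 with each library re-centred on its median, and the count ran from 127 to 192 when a vehicle or SM08502 library of either line was left out. It was 732 without SNGM replicate 2 of the combined treatment, which has 1607038 reads and enters only the shared estimate of spread. VIM differed by 10.18 between the lines on SM08502 and CDH2 by -7.07, against 9.82 and -7.77 on vehicle. The line difference in the combined treatment was not analysed here.

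Along the genome the differences were spread over all chromosomes. The median log2 difference by chromosome ran from -0.10 on chromosome 17 to 0.20 on chromosome 15. Of 271 windows of 10 Mb with at least 20 tested genes, 24 had a median above 0.3 and 5 had a median below -0.3. The lowest was chromosome 17 from 0 to 10 Mb, with a median of -0.55 over 190 genes. Of these, 98 (51.6%) were called lower in SNGM and 23 (12.1%) higher. The highest was chromosome 15 from 50 to 60 Mb, with a median of 0.75 over 60 genes. Here 35 (58.3%) were called higher in SNGM and 8 (13.3%) lower. Over all genes tested, 28.9% were called higher in SNGM and 26.0% lower. Both windows were picked as the extremes of the 271. The same windows had medians of -0.52 and 0.66 on paclitaxel. DNA copy number was not analysed here.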

How the data were processed

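RNA was sequenced after ribosomal depletion, per the labels' protocols. The submitters' processing notes name bcl2fastq, STAR, kallisto and GRCh38 without roles. Annotation and strand of counting are not given in the sources used here, so sense and antisense reads of overlapping genes cannot be told apart. RefSeq (GRCh38.p14) lists an overlapping gene for 81 of the 125 named genes.

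The authors deposited log10(CPM + 1) for 35238 genes. Values were taken back to CPM, which sum to 1000000 per library, and low values were whole multiples of 1 read (100% within 0.1 read), which gave the depths. At 0 reads in both libraries of a line, folds use a floor of 3 reads per library and cover counting error only.

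Genes above 1 CPM in at least 2 of 32 libraries (17011) were fitted with limma 3.58.1 (R 4.3.3) on log2(CPM + 1), 1 mean for each of 16 groups, with an intensity trend (16 residual degrees of freedom, prior 4.9). Tests were two-sided and adjusted by Benjamini-Hochberg over all genes. Fold changes on this scale understate those of low genes. Alternatives are listed in the closing section.

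The 15 largest called differences each way were named among protein-coding genes not on chromosome Y whose vehicle values did not overlap between the lines. Named as well were the 2 largest called members each way of each of 24 gene lists, and fixed genes. Other list members were named after their values were seen. Lists and members were chosen with earlier results of these data known. Promoter sequences are from RefSeq, and 8 marker lists were used. Some genes are not reported here or drawn by name.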

Additional observations from a re-analysis of the deposited data

Results flagged for a closer look

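For 16 of the 125 named genes, the difference between SNGM and HEC265 was not the same on SM08502 as on vehicle, in libraries given unequal doses. The call is by limma's test of the difference itself (adjusted p under 0.05). It was made for 2.03% of all genes tested, a share that cannot be set against the named genes. Most of those were chosen for large vehicle differences, and the same vehicle values are subtracted in this test. Values are the line difference (SNGM minus HEC265) on SM08502 minus that on vehicle, on the log2(CPM + 1) scale. Of those with a positive value, ABCB1, the efflux pump, moved by 2.01, WNT5A by 1.73 and PDZK1 by 1.51. RHOBTB3 moved by 1.08, SCARA3 by 1.04, TFPI2 by 0.95 and HOXB2 by 0.61. Those with a negative value included the kinases that SM08502 inhibits, CLK3 at -1.13 and CLK1 at -0.77. HOXA9 was at -1.30, HAVCR1 at -1.20, IGFBP3 at -1.19, TUBA1A at -0.95, PIK3R1 at -0.82, NRG1 at -0.78 and VAV3 at -0.73.

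CLK3, PDZK1 and RHOBTB3 kept the call under all 20 alternatives in which they were tested, and each of the 16 kept its sign. CLK1 and HOXB2 lost the call in 14 alternatives each, HOXA9 in 12, VAV3 in 11, ABCB1 in 10, TUBA1A in 9, PIK3R1, SCARA3 and TFPI2 in 8 each, NRG1 in 6, HAVCR1 and WNT5A in 5 each and IGFBP3 in 3. For ABCB1 the line difference was -1.92 on vehicle and 0.09 on SM08502, and for CLK3 it was 0.52 and -0.61.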

How the results depend on the processing

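The count of genes called between the lines on vehicle (9339) was 9608 without a filter, 7447 with a stricter filter (mean log2(CPM + 1) of at least 2), 11266 with the 4 vehicle libraries alone and 10887 with limma voom on recovered reads, and 7622 to 8197 when a vehicle library was left out. The share of calls higher in SNGM fell below an even split with median re-centring (47.7%), quantile normalization (47.1%) and the stricter filter (46.1%); the cause was not tested. Of 121 named genes called, 112 kept direction and call under every alternative tried. The exceptions are given beside their values, and CLK4, not called (-0.03), ran from -0.0787 to 0.0217 when a library was left out, positive without SNGM replicate 1 of vehicle.

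For paclitaxel minus vehicle, 5 genes were called without a filter, 2 with a pseudocount of 0.1, 1 with quantile normalization, and 0 to 1 when a library was left out. For SM08502 minus vehicle, the 345 calls were 645 with the SNGM and HEC265 samples alone, 1799 with the contrast's samples alone, 891 with limma voom, 127 to 192 when a library of the contrast was left out and 732 without SNGM replicate 2 of the combined treatment; the cause was not tested. Leaving out a library assumes that the lone replicate varies like the other groups. CPM without mitochondrial genes, chosen after seeing the data, gave 9372 on vehicle.

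The duplicates share only a number (correlation of their differences -0.06 across genes). With the replicate number as a block, 9385 genes were called on vehicle, 0 for paclitaxel minus vehicle and 357 for SM08502 minus vehicle. At these depths, 3 reads amount to 0.0879 to 0.134 CPM, below which levels cannot be ordered.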

Other observations

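Genes near on and off in opposite lines were counted after the values were seen: at least 10 CPM in both vehicle libraries of a line and under 0.5 CPM in both of the other. SNGM had 184 such genes, 1.08% of the genes tested, and HEC265 77. On paclitaxel 167 and 57 of them met the same limits, and on SM08502 147 and 55 did. Promoter windows, matched for 135 and 57 of them, held a median of 19 CG dinucleotides for SNGM and 17 for HEC265, against 20 for all tested protein-coding genes with a window.

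RFX5, a subunit of the factor that binds HLA promoters, had 77.1 and 68.0 CPM in SNGM and 0.267 and 0.0386 CPM in HEC265. MICB, a stress ligand for natural killer cells, had 98.8 and 83.5 CPM against 0.267 and 0.154 CPM, and HLA-DMB had 26.5 and 19.8 CPM against 0.0890 and 0.0772 CPM. Between 25 and 34 Mb of chromosome 6, which holds the HLA and a histone cluster, 14 of 224 tested genes were on this SNGM side (6.25%, against 1.08% of all tested genes) and 0 on the HEC265 side. These bounds were also set after the values were seen, so the shares are no test of the region. The median difference of the window was 0.06. SMO, the Hedgehog signal transducer, had 51.9 and 46.4 CPM in SNGM and no read in HEC265, and TCF7L1, a TCF factor that mostly represses, had 18.9 and 33.6 CPM against 0.178 and 0.386 CPM. WFDC2, the serum marker HE4, had no read in SNGM and 16.9 and 17.8 CPM in HEC265.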
